A study of Sus scrofa with 21 samples.

Results

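The infarct core (IC), the middle of the left ventricular scar, was set against remote myocardium (RM) of the same hearts 4 weeks after myocardial infarction (MI). The animals were 3 female Landrace x Large White pigs, numbered 18, 20 and 22, whose infarct was made by ligating a marginal branch of the circumflex coronary artery. Each pig gave 1 IC and 1 RM array, so that 6 of the 21 arrays of the series and 12180 of 24123 probe sets enter the comparison, those with a value above 3 in at least 10 arrays. The labels of these samples give 30 days. RM was the non-infarcted interventricular septum, and the position in the heart and the infarct therefore cannot be told apart. The other arrays were IC and RM of 3 pigs each at 1 and 6 weeks, and control myocardium (CM) of 3 pigs of the same crossbreed and sex, which the labels describe as sham and the study as healthy. Every value below is a log2 intensity after robust multi-array average (RMA) normalization, log2 fold change (FC) is IC minus RM averaged over the 3 pigs, and a probe set was called at an adjusted P value under 0.05 in limma with the pig as a block.

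A coronary ligation kills the cardiomyocytes of the territory downstream. Inflammatory cells clear them, and fibroblasts that take on a contractile state lay down collagen, which is crosslinked as the scar matures. Healthy ventricle lives mostly on fatty acid oxidation in densely packed mitochondria, so its RNA is rich in transcripts of the respiratory chain, the sarcomere and calcium handling. A biopsy holds all of these cells together, and fewer cells of a type cannot be told apart from less RNA per cell. The comparison asks how the established scar differs from surviving muscle of the same animal.

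The labelled regions carried the markers of their tissue. The log2 of the summed level of 9 fibroblast markers lay between 13.22 and 13.43 in IC and between 10.72 and 11.02 in RM. That of 20 sarcomere genes lay between 14.55 and 15.29 in IC and between 15.83 and 15.89 in RM. IC thus still held a strong muscle signal, and RM held a clear fibroblast signal. Some technical controls also differed by region. Of 34 probe sets for RNAs added before labelling, 26 were higher in all 3 IC arrays than in any RM array (26.9% of all tested) and 8 were called higher, with a median log2 FC of 0.55. Of the 27 hybridisation control probe sets 8 were called higher, and 1 was higher in all 3 IC arrays than in any RM array. For both kinds of control the share called was near the 25.5% called higher among all tested probe sets. The mean level of the hybridisation controls was 9.28, 8.06 and 8.45 in IC of pigs 18, 20 and 22 against 8.36, 8.10 and 8.19 in RM. The difference between the 3′ and 5′ probe sets of GAPDH was 0.64, 0.69 and 0.93 in IC of pigs 18, 20 and 22 against 0.05, −0.07 and −0.03 in RM, whereas the same difference for beta-actin overlapped between the regions. The part of these differences in the results was not tested beyond the scalings given below.

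At 4 weeks 6664 probe sets (54.7%) were called, of which 3100 were higher in IC (25.5% of those tested) and 3564 lower (29.3%). Over all tested probe sets the median log2 FC was −0.05. Rises were larger than falls at the extremes: 401 probe sets rose and 197 fell by a log2 FC of 2 or more, and 116 rose and 15 fell by 3 or more. IC and RM values did not overlap for 7208 probe sets (59.2%). The differences of the 3 pigs ran together across probe sets, with Pearson's r of 0.865 for pigs 18 and 20, 0.818 for pigs 18 and 22 and 0.806 for pigs 20 and 22, as a description across probe sets that share arrays. The split between rises and falls depended on the scaling: 46.5% of calls were rises with the deposited values. With each array centred on the ribosomal protein genes 2101 rose and 4814 fell, and with arrays centred on the added RNA controls 808 rose and 4244 fell, and the median of all probe sets shifted to −0.28 and −0.61. With the added RNA controls limma gave every probe set the same spread (median SE 0.381 against 0.168), so that calls under that scaling do not rest on a gene's own replicates. Directions below are relative to the deposited scaling, and a gene list is named as turning where its median turned under one of these scalings, median centring or cyclic loess.

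The gene with the largest rise was C1QTNF3, which encodes a secreted protein of the C1q and TNF family. Its level was 9.63, 10.05 and 8.53 in IC of pigs 18, 20 and 22 and 1.78, 3.26 and 1.72 in RM (log2 FC 7.15, SE 0.49, adjusted P value 4.39e-06 by limma). FMOD, fibromodulin, a small proteoglycan that binds collagen fibrils, stood at 11.22, 11.56 and 10.31 in IC against 5.10, 4.50 and 5.23 in RM (log2 FC 6.09, SE 0.33, adjusted P value 1.56e-06). Neither gene had an IC value near its RM values, and C1QTNF3 was 1 of 227 probe sets that rose from an RM mean under 3. Another tested probe set that the authors matched to C1QTNF3 has the platform symbol AMACR and had a log2 FC of −1.19. CILP, a cartilage matrix protein also made by cardiac fibroblasts, reached 10.14, 10.65 and 9.12 against 3.68, 3.56 and 5.36 (log2 FC 5.77, adjusted P value 7.38e-05). PTN, the growth factor pleiotrophin, reached 9.49, 9.41 and 8.70 against 3.04, 4.06 and 4.88 (log2 FC 5.20, adjusted P value 2.37e-05). The remaining genes of the 15 largest rises were COL12A1 (log2 FC 5.12), the macrophage glycoprotein gene GPNMB (5.09), PENK, which encodes proenkephalin (5.00), AEBP1 (4.99), LYZ, lysozyme (4.95), POSTN, periostin (4.88), CCDC80 (4.88), SPP1, osteopontin (4.84), CCBL2 (4.82) and 2 immunoglobulin-like loci described below. PENK varied widely between pigs in IC, with 7.96, 10.50 and 5.36 against 2.31, 3.07 and 3.44 in RM.

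**Figure D1:**
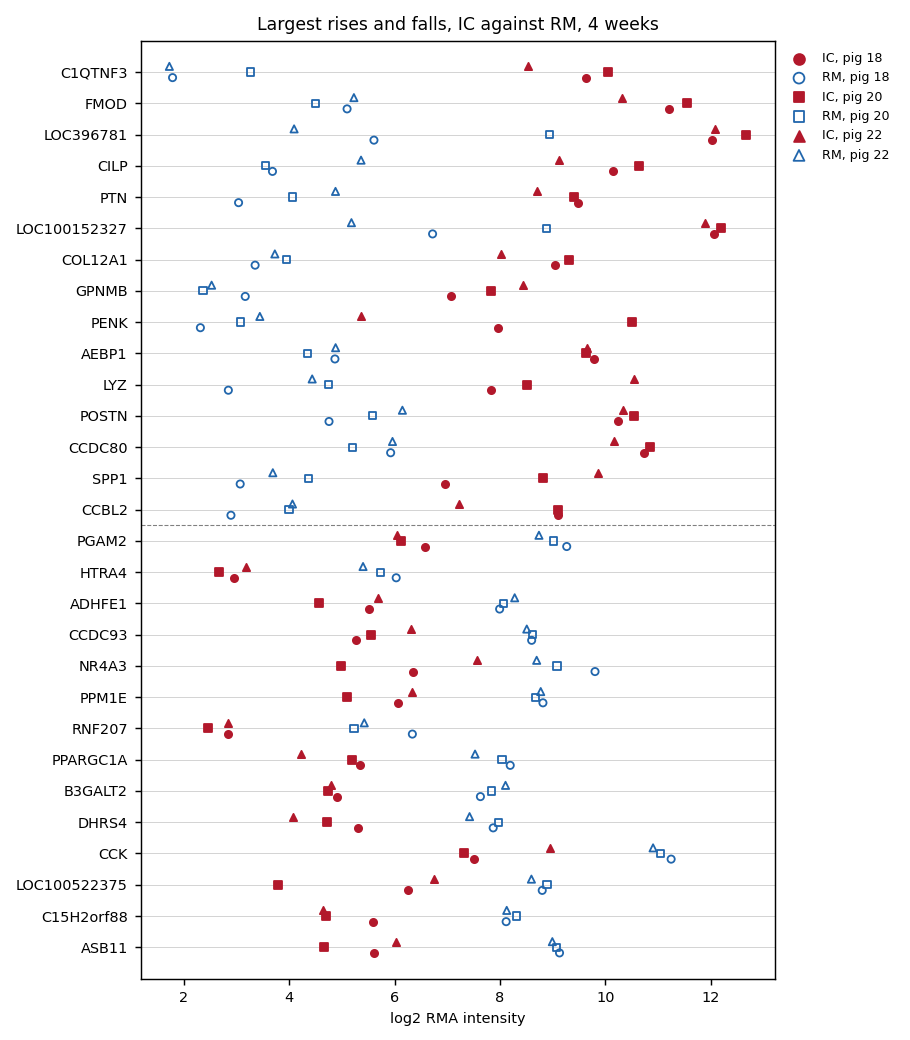
Log2 RMA intensity of the 15 genes with the largest rise (top) and 14 of the 15 with the largest fall (bottom) in infarct core (IC, filled) against remote myocardium (RM, open) at 4 weeks, 1 symbol shape per pig. The 2 regions do not overlap in any of the 29 genes, C1QTNF3 lies 7.15 log2 units higher in IC on average, and ASB11 3.64 lower.

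Most lists of matrix genes rose, and those of cell attachment were mixed. Of the tested members of the lists, 15 of 16 matricellular proteins and glycoproteins rose and 1 fell (median log2 FC 2.31), as did 10 of 10 genes for collagen processing and crosslinking (1.77), 7 of 9 proteoglycans with 1 fall (2.57) and 6 of 8 metalloproteinases and inhibitors with no fall (1.23). Of 6 laminins and basement membrane linkers 1 rose and 3 fell (median −0.20, or 0.03 after cyclic loess), with 1, 1 and 0 falls without pigs 18, 20 and 22, and of 10 integrin and focal adhesion genes 4 rose and 2 fell (median 0.16, or −0.07 and −0.40 with ribosomal and added RNA control centring). Over the 4976 genes with a platform symbol 24.5% rose and 32.3% fell, and the median was −0.11. THBS2, thrombospondin 2, stood at 9.76, 9.46 and 9.96 in IC and 5.60, 5.57 and 5.32 in RM (log2 FC 4.23, SE 0.21, adjusted P value 1.44e-06). FN1 is fibronectin, the provisional scaffold of healing wounds, and had 11.42, 11.73 and 11.48 against 7.33, 7.74 and 8.33 (log2 FC 3.75). Neither gene overlapped between the regions.

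Among the proteoglycans, BGN (biglycan) stood at 10.48, 10.49 and 9.69 in IC and between 5.80 and 5.90 in RM (log2 FC 4.37, adjusted P value 1.44e-06). VCAN (versican) rose by 4.19 and LUM (lumican) by 2.98. The lysyl oxidases crosslink collagen and elastin: LOXL1 rose by 4.73 and LOX by 3.05 (authors' match, 2.55 on the list's probe set), and FKBP10, a chaperone of procollagen, by 3.07. MMP2, gelatinase A, had 9.17, 8.78 and 8.83 against 6.02, 5.45 and 6.09 (log2 FC 3.07, adjusted P value 1.15e-05). Its inhibitors rose with it, TIMP2 by 2.50 and TIMP1 by 2.49, and MMP14, the membrane protease that activates MMP2, by 1.39.

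Collagen transcripts were measured by probe sets that did not always move alike. By the authors' match of probe sequences to human genes, COL1A1 stood at 10.03, 9.62 and 10.39 in IC against 5.58, 5.60 and 6.01 in RM (log2 FC 4.28, SE 0.21, adjusted P value 1.44e-06). Another tested probe set that the authors matched to COL1A1 has the platform symbol SRGN and had a log2 FC of 2.55. COL1A1 was named outside the rule, after its values were seen. It is the main scar collagen and has no platform symbol among the tested probe sets. COL1A2, named the same way, rose by 2.94 (1.77 on the probe set that the list counts), and COL3A1 had 12.69, 12.78 and 12.81 against 10.63, 11.12 and 11.46 (log2 FC 1.69, adjusted P value 3.85e-05). For COL3A1 the only tested probe set with the platform symbol was dim and had a log2 FC of −0.01, and it is the 1 of 4 fibrillar collagens in the list that did not pass. All 5 tested network, basement membrane and other collagens rose, led by COL8A1 (4.38) and COL6A3 (2.67).

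Fibroblasts make this matrix, and all 9 tested fibroblast markers with a platform symbol rose, with a median log2 FC of 2.90. CDH11, a cadherin of mesenchymal cells, stood at 8.27, 8.10 and 8.18 in IC and 4.08, 4.13 and 4.44 in RM (log2 FC 3.97, adjusted P value 1.44e-06). THY1 rose by 3.78, FAP, a protease of activated fibroblasts, by 3.27, and TCF21, a transcription factor of resident cardiac fibroblasts, by 2.67. The THY1 probe set has another gene name in the authors' match. PDGFRA, named through the authors' match, had 7.69, 7.26 and 7.82 against 5.38, 5.57 and 5.88 (log2 FC 1.98, adjusted P value 4.62e-05). DDR2, a collagen receptor and defining fibroblast marker named the same way, ran the other way, with 3.75, 3.39 and 3.89 in IC against 4.63, 4.59 and 4.93 in RM (log2 FC −1.04, adjusted P value 0.0011). PRRX1, a mesenchymal transcription factor, rose by 3.75 on a probe set of the authors' match and by 3.62 on that with the platform symbol.

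Smooth muscle and myofibroblast contractile genes rose in 6 of 9 cases and fell in 1 (median log2 FC 1.64). ACTA2, smooth muscle actin, stood at 10.82, 10.81 and 11.20 in IC and 8.88, 8.93 and 9.09 in RM (log2 FC 1.98, SE 0.16, adjusted P value 8.13e-06). TAGLN rose by 2.51, CNN1, calponin, by 1.64, and MYH11, smooth muscle myosin named through the authors' match, by 2.56. The 1 that fell was SMTN, smoothelin, by 1.48, with no overlap between regions. Of 28 tested genes of the nonmuscle cytoskeleton, annexins and S100 proteins 24 rose and 2 fell (median 1.53), led by CAPG, a capping protein of actin filaments (3.41), and ANXA1, the anti-inflammatory annexin (2.54).

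Macrophage markers were higher in IC of every pig. All 10 tested members rose (median log2 FC 1.88), and the log2 of the summed level of the 13 members on the array lay between 10.08 and 11.15 in IC and between 8.27 and 8.46 in RM. LGALS3, galectin-3, stood at 6.51, 6.92 and 7.47 in IC and 3.19, 3.39 and 3.77 in RM (log2 FC 3.51, SE 0.37, adjusted P value 3.43e-05). CD163, a scavenger receptor that defines tissue macrophages, had 6.92, 6.35 and 7.42 against 5.64, 5.19 and 5.19 (log2 FC 1.56, adjusted P value 0.00225). LYZ had 7.82, 8.52 and 10.55 against 2.84, 4.75 and 4.43, and pig 22 was the highest of the IC arrays for all 3 of these genes. The defining marker CD14 had values under 3 in all 6 arrays.

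Other leukocyte markers gave different values. The 6 neutrophil markers on the array, among them S100A8, were under 3 in all 6 arrays, and none was tested. None of the 12 T and NK cell markers passed the filter or, with no filter, the test, and the log2 of their summed level lay between 5.86 and 6.71 in IC and between 5.36 and 5.76 in RM. Of the B and plasma cell markers 1 was tested. This was JCHAIN, the joining chain of secreted antibodies, which stood at 7.34, 7.88 and 7.02 in IC and 3.91, 4.88 and 3.51 in RM (log2 FC 3.31, SE 0.66, adjusted P value 0.00187). The other marker on the array, CD79B, was under 3 in all 6 arrays. The locus LOC396781, which the reference table lists with the synonym IGHG, had 12.03, 12.67 and 12.08 in IC against 5.61, 8.95 and 4.09 in RM (log2 FC 6.05, SE 1.25, adjusted P value 0.00223). The second locus of the kind, LOC100152327, rose by 5.12. In both loci RM of pig 20 was the highest of the RM arrays, and IC differed little between pigs. The mast cell receptor gene MS4A2 rose by 1.48 (adjusted P value 0.00209).

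Complement and antigen presentation genes rose as well. Of 13 complement genes 11 rose and none fell (median log2 FC 2.06). C3, the central component, stood at 8.99, 7.95 and 9.29 in IC and 6.82, 6.11 and 5.45 in RM (log2 FC 2.62, SE 0.34, adjusted P value 0.000137). C4A had 6.98, 4.48 and 8.49 against 3.40, 2.41 and 2.44 (log2 FC 3.91, adjusted P value 0.000854), and varied widely between the IC arrays. Antigen presentation genes rose in 12 of 17 cases and fell in 1 (median 0.81), among them the class II genes SLA-DQA1 by 1.43 and SLA-DMB by 1.26. Without pig 22 the count was 7 of 17, and SLA-DQA1 no longer passed (log2 FC 0.90, adjusted P value 0.0602). SLA-DMA, named outside the rule, fell by 0.70 on its brighter probe set and rose by 1.12 on the dimmer one. Interferon-induced genes rose in 13 of 17 cases with no fall (median 0.78), led by MX1, an antiviral GTPase (1.92), and without the block on the pig in 7. With arrays centred on the added RNA controls the medians of these last 2 lists stayed above 0, at 0.25 and 0.22, but 1 gene rose in each.

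Chemokines and cytokines rose in 10 of 16 cases and fell in 1 (median log2 FC 1.30). CXCL12, which holds and recruits leukocytes and progenitors, was the clearest, with 7.50, 7.32 and 7.56 in IC and 3.82, 4.14 and 4.02 in RM (log2 FC 3.47, SE 0.21, adjusted P value 2.85e-06). CXCL14 rose by 3.36 and CXCL16 by 1.98. Of the coagulation and plasminogen genes 10 of 12 rose and 2 fell, led by the protease inhibitor genes SERPINE2 (3.47) and SERPINF1 (2.95).

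Endothelial markers were mostly not called. Of 11 tested 3 rose and 8 did not pass, a share of rises near that of all genes (24.5%), and the median log2 FC of 0.04 turned to −0.01 with median centring, −0.19 with ribosomal centring and −0.51 with the added RNA controls. ERG, an endothelial transcription factor, rose by 0.89 (adjusted P value 0.00274) and RAMP2, a receptor partner, by 0.77 (0.00302). PECAM1 had 7.26, 7.17 and 8.59 in IC against 6.96, 6.98 and 7.20 in RM (log2 FC 0.63, adjusted P value 0.0439), and 0.25 (0.37) without pig 22. CDH5, the cadherin of endothelial junctions, had 5.99, 6.55 and 7.34 against 6.30, 6.99 and 7.39 (log2 FC −0.27, adjusted P value 0.258), and VWF a log2 FC of 0.04. With no filter 2 of the 15 endothelial markers on the array rose and 2 fell, and PECAM1 did not pass (adjusted P value 0.0571 by limma). The falls were KDR and FLT1, by 0.43 each, with values under 3 in all 6 arrays. The summed level of the endothelial markers overlapped between regions. Of 4 pericyte markers 2 rose, PDGFRB and MCAM by 1.07 each, and KCNJ8 fell by 1.24. Schwann cell genes S100B and NCAM1, a glial calcium-binding protein and an adhesion molecule, rose by 1.67 and 2.18, while MBP, a myelin protein, fell by 0.65. MBP did not pass without pig 18 (−0.36, adjusted P value 0.278) or without pig 20 (−0.61, 0.127).

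The genes that fell most were of several kinds. ASB11, an adaptor of a ubiquitin ligase, had the largest fall of a named gene, with 5.61, 4.66 and 6.02 in IC and 9.13, 9.08 and 8.99 in RM (log2 FC −3.64, SE 0.26, adjusted P value 5.57e-06). CCK, which encodes the peptide hormone cholecystokinin, stood at 7.50, 7.31 and 8.95 against 11.25, 11.05 and 10.91 (log2 FC −3.15, adjusted P value 0.00013). PPARGC1A, the coactivator that drives mitochondrial gene expression, stood at 5.33, 5.19 and 4.23 against 8.19, 8.04 and 7.53 (log2 FC −3.00, SE 0.15, adjusted P value 1.44e-06). Each of the 3 varied more between the IC arrays than between the RM arrays. Others of the 15 largest falls were C15H2orf88 (−3.21), LOC100522375 (−3.17), DHRS4 (−3.06), B3GALT2 (−3.05), RNF207 (−2.96), PPM1E (−2.92), the nuclear receptor gene NR4A3 (−2.90), CCDC93 (−2.86), ADHFE1 (−2.86), HTRA4 (−2.79) and PGAM2, the muscle phosphoglycerate mutase (−2.76). The RNF207 probe set has another gene name in the authors' match.

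Mitochondrial energy genes fell almost without exception. All 16 tested enzymes of mitochondrial beta-oxidation fell (median log2 FC −1.53), as did all 22 of the citric acid cycle and pyruvate dehydrogenase (−1.47) and all 33 subunits of respiratory complex I (−1.42). Of complexes III and IV and ATP synthase 20 of 22 fell (−1.16), of the mitochondrial ribosome and import machinery 50 of 52 (−1.11), and of branched-chain amino acid and ketone breakdown 12 of 14 (−1.54). These medians kept their sign under each scaling.

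ACADVL, the very long chain acyl-CoA dehydrogenase at the entry to beta-oxidation, stood at 7.66, 7.24 and 6.96 in IC and 10.22, 9.69 and 9.75 in RM (log2 FC −2.60, SE 0.12, adjusted P value 1.44e-06). PDHA1, which carries pyruvate into the citric acid cycle, had 6.41, 6.25 and 5.65 against 8.27, 8.39 and 8.29 (log2 FC −2.21, adjusted P value 1.38e-05). NDUFS7, a complex I subunit near its quinone site, had 8.21, 8.23 and 7.87 against 10.39, 10.25 and 10.28 (log2 FC −2.20, adjusted P value 3.73e-06). In each case the lowest RM value was more than 1 log2 unit above the highest IC value. The single gene that rose among the counted members of the respiratory lists was COX6A1, with 9.37, 9.83 and 9.80 against 8.51, 8.81 and 8.51 (log2 FC 1.06, adjusted P value 9.25e-05). It encodes the widely expressed form of a cytochrome oxidase subunit that muscle makes from another gene.

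Fuel uptake and its regulators fell too. Of 8 genes of fatty acid uptake and activation 7 fell (median log2 FC −1.65), among them CPT1B, the muscle carnitine palmitoyltransferase (−2.71), LPL, lipoprotein lipase (−1.69 by the authors' match, −2.21 on the list's probe set), and FABP3, the heart fatty acid-binding protein (−1.65, or −0.99 without pig 22). Of the metabolic regulators 5 of 6 fell, including PDK4, which shuts pyruvate dehydrogenase (−1.42, not passing without the block, adjusted P value 0.342), and SIRT3, the mitochondrial deacetylase (−1.31). Glycolytic enzymes were mixed, with 10 falls, 2 rises and 5 that did not pass (median −0.59). The antioxidant genes were mixed as well: MT3, a metallothionein, fell by 2.30 and the mitochondrial SOD2 by 1.38, and the glutathione transferase gene GSTA4 rose by 1.83.

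Calcium handling and channel genes fell in all 13 tested cases (median log2 FC −1.27), and all 7 tested cardiac transcription factors fell (−1.12). ATP2A2, 1 of these 13 and named outside the rule, fell by 1.2 on the probe set counted. On its dimmer probe sets ATP2A2 rose by 0.84 and 0.72. RYR2, the release channel of the sarcoplasmic reticulum, stood at 6.58, 6.46 and 5.92 in IC and 8.23, 8.66 and 8.60 in RM (log2 FC −2.17, SE 0.24, adjusted P value 4.44e-05). SLC8A1, the sodium-calcium exchanger, fell by 2.19, and KCNIP2, a subunit of transient outward potassium channels, by 1.61. HEY2 and HAND1, factors that pattern the ventricle, fell by 1.91 and 1.77. PDE3A, a cyclic AMP phosphodiesterase, fell by 2.28 and EDNRA, an endothelin receptor, by 1.77, while EDN1, its ligand endothelin-1, rose by 0.89 (0.66 without pig 18, adjusted P value 0.101).

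Sarcomere genes fell less evenly. Of 19 tested 14 fell and none rose (median log2 FC −1.02). MYOM2, a myomesin of the M-band, stood at 9.22, 8.31 and 9.27 in IC and 11.66, 11.72 and 11.66 in RM (log2 FC −2.75, SE 0.27, adjusted P value 2.29e-05). MYH7, the main ventricular myosin, had 12.78, 12.80 and 12.11 against 13.05, 13.01 and 12.96 (log2 FC −0.44, adjusted P value 0.0241), but −0.24 without pig 22 (0.205) and 0.01 after cyclic loess. ACTC1, cardiac actin, had a log2 FC of −0.29 (adjusted P value 0.103) and MYL2, the ventricular regulatory light chain, one of −0.34 (0.0883), and neither passed. MYH7 and MYL2 lay close to the highest value of the whole table, 13.4. Among the 28 tested probe sets with a mean of 12 or more, 46.4% were called and the median absolute log2 FC was 0.34, against 67.8% and 0.73 for means from 8 to 10. The part of the array's upper range in these small differences was not tested.

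**Figure D2:**
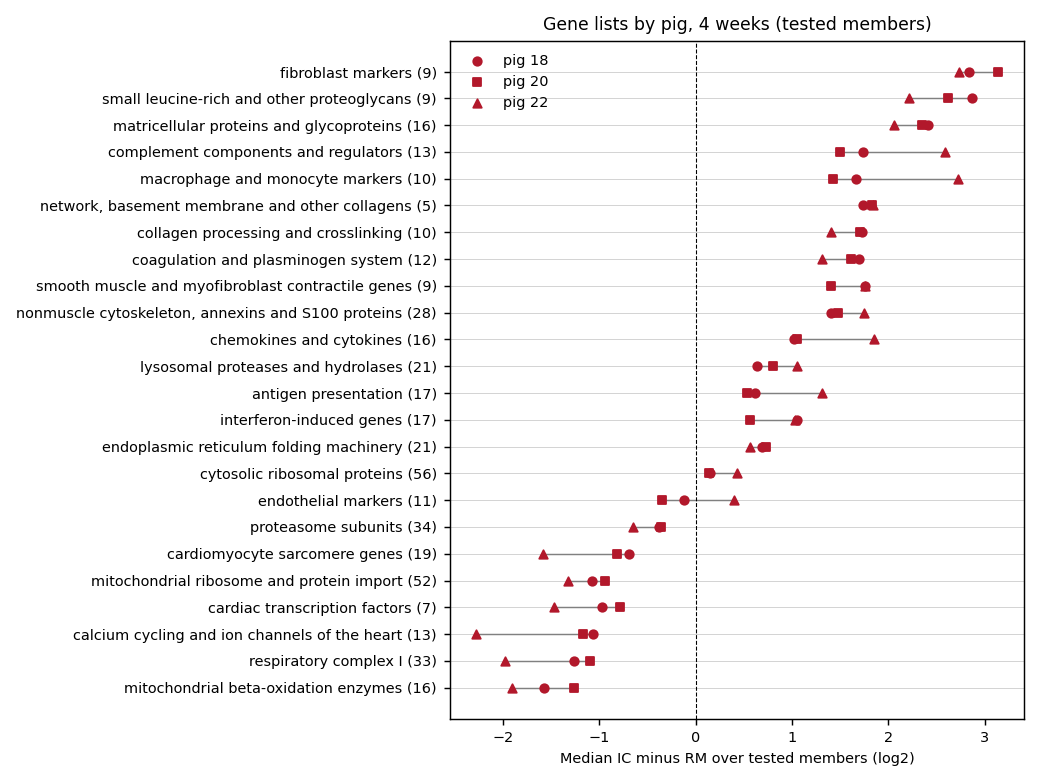
Median difference of IC minus RM (log2) over the tested members of 24 gene lists in each of the 3 pigs at 4 weeks, 1 symbol shape per pig. Each line spans the 3 pigs, the dashed line marks 0, and pig 22 lies furthest from 0 for the sarcomere, calcium handling and macrophage lists.

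Pig 22 stood apart from the other pigs in part of this pattern. The median difference of the sarcomere list was −0.69, −0.81 and −1.58 in pigs 18, 20 and 22, that of calcium handling −1.06, −1.17 and −2.28, and that of macrophage markers 1.66, 1.43 and 2.72. Of genes for which the other pigs lay within 1 log2 unit of each other, 26 were more than 2 log2 units lower in pig 22 and 10 were higher, against 1 and 7 for pig 18 and 4 and 3 for pig 20. Without pig 22, 11 of 19 sarcomere genes and 9 of 13 calcium handling genes fell, and 1 sarcomere gene rose.

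The genes that set pig 22 apart included the peptides of wall stress. NPPB, the gene for B-type natriuretic peptide, stood at 11.08, 12.02 and 3.98 in IC and 6.32, 6.95 and 6.83 in RM, a gain in pigs 18 and 20 and a deficit in pig 22 (log2 FC 2.33, SE 1.42, adjusted P value 0.19). The log2 FC of NPPB was 1.11 without pig 18 (adjusted P value 0.616), 0.95 without pig 20 (0.661) and 4.91 without pig 22 (0.0052). NPPA, the atrial peptide, had 9.61, 11.51 and 3.45 against 8.39, 7.16 and 5.72 (log2 FC 1.10, adjusted P value 0.308), with −0.52 without pig 20 (0.532) and 2.79 without pig 22 (0.00407). With all 3 pigs the regions overlapped in both genes and neither passed. DES, desmin, the intermediate filament of muscle, had 10.16, 9.95 and 7.94 against 10.04, 9.78 and 9.97 (log2 FC −0.58, adjusted P value 0.216). XIRP2, an actin-binding protein of intercalated discs, had 8.96, 9.22 and 2.73 against 6.13, 5.97 and 6.85 (log2 FC 0.65, adjusted P value 0.644). MYL4, the atrial light chain, had 8.07, 8.81 and 4.61 against 8.01, 5.53 and 5.65 (log2 FC 0.77, adjusted P value 0.349). XIRP2 and MYL4 were picked for this pattern after their values were seen, and in all 5 genes IC of pig 22 was the lowest of the 6 arrays.

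Some of the 8 fat markers on the array, picked after their values were seen, were high in the same sample. ADIPOQ, the adipocyte hormone adiponectin, stood at 0.95, 0.90 and 4.53 in IC and at 1.10 or less in RM, and CIDEA, a lipid droplet protein, at 2.06, 1.83 and 5.72 in IC and 2.33 or less in RM. Both were under the filter and were not tested in the main fit. With no filter neither passed (log2 FC 1.26 and 1.21, adjusted P values 0.0679 and 0.167 by limma). The 4.53 and 5.72 in IC of pig 22 were the highest values of these genes in all 21 arrays. FABP4 (10.29), CFD (9.68) and DGAT2 (3.67) also had their highest value of the 21 arrays there. The other 3 markers did not. LEP was at 2.63 in IC of pig 22 against 2.36 to 2.78 in the other 5 arrays, and RBP4 at 1.24 against 1.12 to 1.46. LIPE was at 4.05 there, against 2.71 and 2.36 in IC of pigs 18 and 20 and 4.73 to 5.02 in RM. The adipocyte list as a whole had 3 tested members, of which LIPE, the hormone-sensitive lipase, had a log2 FC of −1.82 that passed (−1.50 without pig 20, adjusted P value 0.0525) and the others did not pass, and its summed level overlapped between regions. Its median of −0.03 turned to 0.23 after cyclic loess. The part of fat or of fewer muscle cells in the values of pig 22 was not tested.

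**Figure D3:**
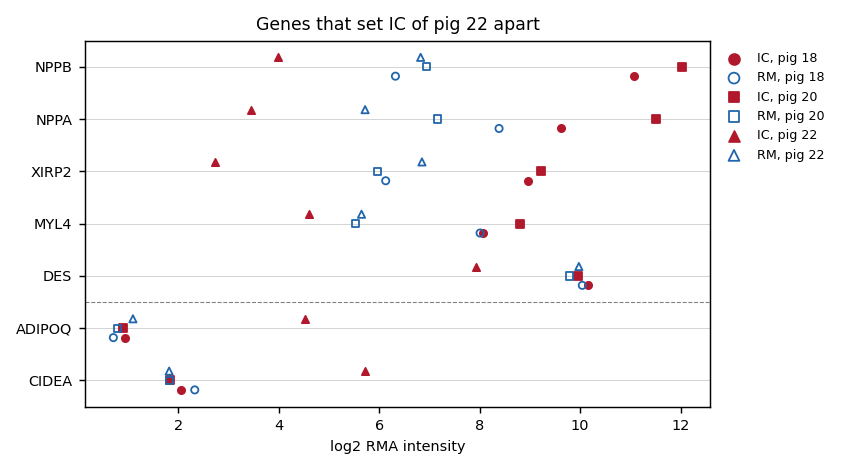
Log2 RMA intensity in IC (filled) and RM (open) of pigs 18, 20 and 22 for 5 muscle and natriuretic peptide genes and 2 adipocyte genes. IC of pig 22 is the lowest of the 6 arrays for NPPB, NPPA, XIRP2, MYL4 and DES and the highest for ADIPOQ (4.53) and CIDEA (5.72).

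Muscle and other tissues use different genes for some proteins, and 21 such pairs had both members tested, with ACTC1 in 2 of them. The heart or muscle form fell in 16 pairs and rose in none, the other form rose in 11 and fell in 1, and in 19 pairs the other form lay above the muscle form in the IC minus RM difference of all 3 pigs. Pairs were compared through the difference of their log2 FC within each pig, since levels of different probe sets cannot be set against each other. CPT1B had 7.06, 6.85 and 6.18 in IC and 9.66, 9.29 and 9.28 in RM, and CPT1A, the form of liver and other tissues, had 6.82, 7.22 and 7.19 against 5.45, 5.58 and 5.76. CPT1A thus rose by 1.48 (adjusted P value 1.71e-05) where CPT1B fell by 2.71, and CPT1A minus CPT1B came to 4.19 ± 0.29 (SD, n = 3). The CPT1B probe set also matches the neighbouring gene CHKB in the authors' table.

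The same held for structural and glycolytic pairs. TPM4 minus TPM1, the nonmuscle and muscle tropomyosins, came to 3.38 ± 0.54, MYL6 minus MYL3, essential myosin light chains, to 3.31 ± 0.62, and ACTN1 minus ACTN2, the alpha-actinins, to 3.21 ± 0.29 (SD, n = 3 each). ENO1 rose by 1.41 and ENO3, muscle enolase, fell by 1.56, CKB rose by 1.30 and CKM, muscle creatine kinase, fell by 1.35, and LDHA rose by 1.01 and LDHB, the heart form of lactate dehydrogenase, fell by 0.59. LDHB did not pass without pig 22 (−0.37, adjusted P value 0.113) or after cyclic loess (−0.18, 0.289), and with the added RNA controls ENO1 (0.85), CKB (0.74) and LDHA (0.45) lost their calls. VIM rose by 1.99, whereas DES did not pass. TPM1 has another probe set that rose by 1.72, so that its fall belongs to the probe set with the higher mean, and averaging them gave a log2 FC of 0.35 for TPM1 (adjusted P value 0.0146). Other pairs showed no such opening: MYL9 minus MYL2 came to 0.13 ± 0.26, and HSPB1, a heat shock protein of many cells, fell by 0.78 while CRYAB, its relative in muscle and lens, did not pass.

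**Figure D4:**
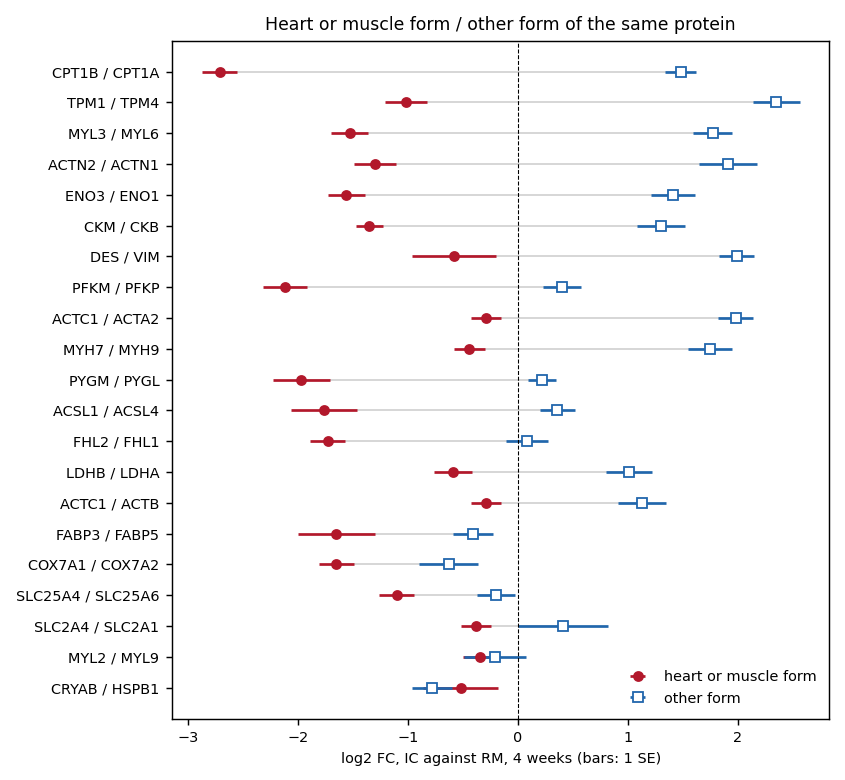
Log2 FC of IC against RM at 4 weeks for 21 pairs of a muscle form (filled circles) and another form (open squares) of the same protein, with bars of 1 SE from limma. CPT1A minus CPT1B (4.19) is the widest gap, and MYL9 minus MYL2 (0.13) is near 0.

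Housekeeping machinery moved by smaller amounts. Lysosomal proteases and hydrolases rose in 18 of 21 cases and fell in 1 (median log2 FC 0.81), led by the cathepsins CTSH (3.13) and CTSK, a collagenase (3.08). The folding machinery of the endoplasmic reticulum rose in 14 of 21 cases with no fall (median 0.69), among them the translocon subunit gene SEC61B (1.53) and XBP1, a factor of secretory cells (1.46). Proteasome subunits fell in 21 of 34 cases and rose in 1 (median −0.52), the rise being that of PSMB8, the immunoproteasome subunit (0.74, or 0.43 without pig 22, adjusted P value 0.0642), which was named outside the rule. Ribosomal proteins rose in 14 of 56 cases with no fall, a share of rises near that of all genes (24.5%). In 39 of the 56 every IC value lay above every RM value, against 26.9% of all tested probe sets. The count of called rises was 8, 9 and 3 without pigs 18, 20 and 22 and 53 after cyclic loess. The median of the 56 genes, 0.26, turned to −0.30 with the added RNA controls. RPL3 stood out among them, with a rise of 1.84 against 0.66 for the next, RPS18.

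Signalling genes were mostly mixed within their lists. Of 15 genes of TGF-beta and BMP signalling 7 rose and 1 fell, and the median of 0.28 turned to −0.28 with the added RNA controls. TGFB3 stood at 8.31, 8.26 and 7.25 in IC and 4.46, 4.56 and 4.23 in RM (log2 FC 3.52, SE 0.23, adjusted P value 3.73e-06). The receptor gene TGFBR1 rose by 1.82 and TGFB2 by 0.98, and TGFB1 had 4.48, 4.25 and 4.74 against 4.92, 4.42 and 4.65 (log2 FC −0.18, adjusted P value 0.442). Of Wnt genes 5 of 9 rose and 1 fell, among them SFRP1, a secreted antagonist, by 4.61, and the receptor gene FZD5, which fell by 1.82. IGF1, insulin-like growth factor 1, rose by 3.46 on a probe set of the authors' match and by 1.94 on that with the platform symbol, and IGFBP6, one of its binding proteins, by 3.23.

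A set of 10 genes was also chosen for PCR, and on the arrays 6 of them were called higher and none lower. These were TGFB3, TNFRSF1A, the first TNF receptor (log2 FC 0.90), BMPR1A, a BMP receptor (0.71), BID, a link between death receptors and mitochondria (0.59), LMNA, lamin A/C (0.53), and SMAD1 (0.52). LMNA did not pass without pig 20 (0.38, adjusted P value 0.0834), SMAD1 not without the block (0.0681), and with the added RNA controls they had −0.03 and −0.04. That scaling left BID at 0.03, BMPR1A at 0.16 and TNFRSF1A at 0.35, none of them called, and ribosomal centring ended the calls of BID, LMNA and SMAD1 (0.36, 0.30 and 0.29). NFKBIA, the inhibitor of NF-kappa B, had a log2 FC of 0.09 (adjusted P value 0.642), ACVR2B was under the filter, and BMP2 was named for no probe set. Among other genes of cell death CASP1, the inflammatory caspase, rose by 2.29, and AIFM1 and ENDOG, proteins kept in mitochondria until release, fell by 1.94 and 1.96.

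Immediate early genes split, with 6 rises and 5 falls among 15, and with 2 falls without pig 18 or without pig 20. The median of 0.18 turned to −0.05 with ribosomal centring and −0.38 with the added RNA controls. FOS stood at 8.67, 8.52 and 8.01 in IC and 6.30, 4.62 and 4.37 in RM (log2 FC 3.30, SE 0.46, adjusted P value 0.000211), and EGR1 rose by 2.51. NR4A3 fell, with 6.36, 4.98 and 7.56 against 9.80, 9.08 and 8.70. FOS was also uneven in CM, with a mean of 4.75 ± 2.69 (SD, n = 3).

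Most of the pattern was shared with the other stages, which came from other pigs. Of the 4-week calls 97.3% had the same sign of IC minus RM at 1 week and 99.1% at 6 weeks, and 4394 probe sets were called with the same sign at all 3 stages, where 52.6% were called at 1 week and 47.7% at 6 weeks. The difference itself was tested between stages. Against 1 week 8 probe sets were called (0.0657%), 3 with a higher (0.0246%) and 5 with a lower (0.0411%) IC minus RM at 4 weeks, and against 6 weeks none was called in limma, with 802 at an unadjusted P value under 0.05 (1346 against 1 week). A further 717 probe sets were called at 4 weeks alone, of which none was called in either test between stages. The added RNA controls had a median IC minus RM of 0.55 at 4 weeks, −0.28 at 1 week and 0.53 at 6 weeks. The hybridisation controls had 0.36, −0.35 and −0.29. The part of these shifts in the tests between stages was not tested beyond the scalings.

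The 5 lower differences were in TOP2A, PBK, UBE2C, HIST1H2AK and PLIN2. TOP2A, the topoisomerase of dividing cells, stood at 3.13, 4.90 and 4.62 in IC and 2.51, 4.16 and 3.42 in RM at 4 weeks, a log2 FC of 0.85 against 3.77 at 1 week (difference −2.91, adjusted P value 0.0376). PBK, a mitotic kinase, had 0.35 against 2.97 (−2.62), UBE2C, which tags mitotic cyclins for destruction, 0.56 against 2.83 (−2.27), and the histone gene HIST1H2AK 1.60 against 3.57 (−1.97). Of the 10 tested cell cycle genes 1 rose at 4 weeks, TOP2A, which did not pass without pig 20 (0.91, adjusted P value 0.0507) or pig 22 (0.68, 0.114). The fifth was PLIN2, a coat protein of lipid droplets, which had −0.56 at 4 weeks and 1.81 at 1 week (difference −2.37). Its difference at 4 weeks passed with all 3 pigs and with no 2 of them.

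The 3 higher differences included the matrix protease gene ADAMTS3 and a probe set with no name here. ADAMTS3 cuts the propeptides of collagen, and stood at 3.83, 3.91 and 4.08 in IC and 2.98, 2.13 and 2.48 in RM at 4 weeks, a log2 FC of 1.41 against −1.49 at 1 week (difference 2.90, adjusted P value 0.0285). The study lists ADAMTS3 as upregulated in remote myocardium at 1 week. ADAMTS3 and PLIN2 were among 14 probe sets called in opposite directions at 4 weeks and another stage. Of these, SCARA5, a ferritin receptor, and DUSP1, a phosphatase of MAP kinases, picked after their values were seen, rose by 0.96 and 0.66 at 4 weeks and had −1.64 and −0.92 at 1 week. At 4 weeks SCARA5 lost its call without pig 18 (0.87, adjusted P value 0.103) or pig 22 (0.93, 0.0815), and DUSP1 without pig 20 (0.65, 0.0917) or pig 22 (0.39, 0.215). Against 1 week, 3 probe sets were called without pig 18, none without pig 20 (limma, adjusted P value under 0.05) and 23 without pig 22. Of the 6 named genes PBK and ADAMTS3 passed without pig 18, and all but UBE2C without pig 22 (adjusted P value 0.0535). None was called without the block. PBK, HIST1H2AK and ADAMTS3 are named through the authors' match.

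**Figure D5:**
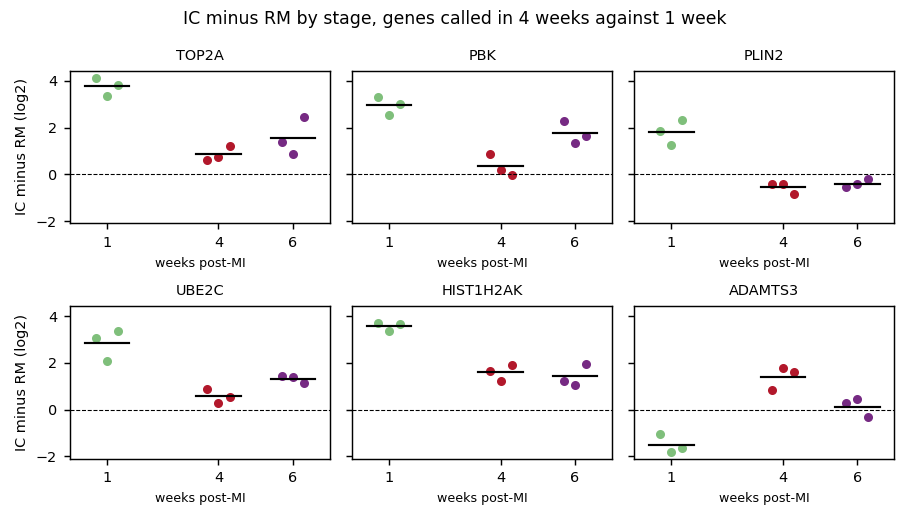
IC minus RM (log2) in each of 9 pigs at 1, 4 and 6 weeks for 6 named genes called in the test of 4 weeks against 1 week; each point is 1 pig, the bar is the mean of 3 pigs and the dashed line marks 0. TOP2A, PBK, UBE2C and HIST1H2AK lie lower at 4 weeks than at 1 week, and PLIN2 and ADAMTS3 change sign.

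CM was also set beside both regions. Both comparisons use the same 3 CM arrays, so their values stand side by side only. IC against CM had 6623 calls (54.4%) and RM against CM 132 (1.08%), 75 higher (0.616%) and 57 lower (0.468%). THBS2 was 1.11 higher in RM than in CM (adjusted P value 0.0259) and 5.34 higher in IC. ACTA2 was 0.86 higher in RM (adjusted P value 0.0218) and 2.84 higher in IC. DDR2 was 1.21 lower in RM (log2 FC −1.21, adjusted P value 0.00751) and had −2.25 in IC. PPARGC1A differed from CM by 0.05 in RM and −2.96 in IC, and RYR2 by 0.28 and −1.89. NPPB had 2.72 in RM against CM (adjusted P value 0.399) and 5.04 in IC, with pig 22 the exception described above.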

How the data were processed

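Total RNA of 21 pig myocardial samples was hybridised to the Affymetrix Porcine Genome Array, 1 array per sample. The deposited table holds log2 intensities that the authors made by RMA, as the study's methods and the labels' processing notes state, with no version of RMA given there. Scanner files were not used here, so the precision rests on the number of arrays and each group has 3.

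Probe sets above 3 in at least 10 of 21 arrays (12180 of 24123) were tested with limma 3.58.1 in R 4.3.3 on the 18 IC and RM arrays, each pig being a fixed effect, at a Benjamini-Hochberg adjusted P value threshold of 0.05. CM was compared in a fit of all 21 arrays with no block. Pairs come from the pig number in the labels, and residuals of IC and RM of the same pig correlated at 0.200, 0.141 and 0.128 in pigs 18, 20 and 22. The fit was tested on simulated data for IC against RM at 4 weeks (12180 probe sets), where 86 of 100 changes of log2 1 and 99 of 100 of log2 2 were recovered and 14 unchanged probe sets were called. The simulation changed far fewer probe sets than were called in the data and drew noise independently for each. Its counts therefore do not give the error rate of the real calls.

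Names came from the platform annotation (6239 tested probe sets with 1 symbol) or else from the authors' match to human genes (1078), and 4863 had none. The probe set with the highest mean stood for a gene, and gene lists used platform symbols alone. Named genes were the 15 largest rises and falls with 1 sign in all pigs, the members that changed most in each list (4 at most), defining markers, pair members, genes called between stages, the genes of the study's PCR and array controls. Some genes that these rules name are not reported here. Members and lists were chosen with earlier results of these data known. Alternatives covered the block, filter, scaling, variance model, threshold, probe set and each pig left out. Figures were drawn with matplotlib 3.10.9 in Python 3.11.15.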

Additional observations from a re-analysis of the deposited data

Results flagged for a closer look

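The test of IC minus RM at 4 weeks against 1 week, itself a test of the difference between stages, called 8 probe sets, of which 7 are given here. The difference was lower at 4 weeks for TOP2A (−2.91), PBK (−2.62), PLIN2 (−2.37), UBE2C (−2.27) and HIST1H2AK (−1.97), and higher for ADAMTS3 (2.90) and a probe set with no name here (1.47). The stages came from different pigs and array controls shifted between them, as given above, and what set the stages apart was not tested.

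ADIPOQ and CIDEA lay under the filter on low values and did not pass with no filter. They stood at 4.53 and 5.72 in IC of pig 22, above every other array of the series, CM included.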

How the results depend on the processing

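The 6664 calls of IC against RM at 4 weeks ranged from 5052 to 8575 over the other models, filters and scalings, fell to 4846 at an adjusted P value under 0.01 and to 2833 with an absolute log2 FC of at least 1 required, and lay between 5381 and 5619 with any 1 pig left out. Without the replicate block 6165 were called, of which 6052 were shared with the same sign, and with the pig as a random block 6814.

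The 8 calls of 4 weeks against 1 week were less stable. There were 0 without the replicate block, 83 with no filter, 5 with median centring, 5 with ribosomal centring and 4 after cyclic loess. With the added RNA controls there were 192, of which 3 were higher and 189 lower at 4 weeks. Array weights gave 97, an adjusted P value under 0.01 gave 0, and the 12 arrays of both stages alone gave 3. With 1 pig left out there were 0 to 23. Against 6 weeks 1 was called with no filter and 0 otherwise. Counts against CM stayed within 1.5 times of their values.

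Of 2882 values of 170 named genes under 17 alternatives, 4 changed sign in a gene called before or after: LMNA (−0.03) and SMAD1 (−0.04) with the added RNA controls, MYH7 (0.01) after cyclic loess and TPM1 (0.35) as the mean of its probe sets. A further 108 lost and 13 gained a call, 24 changed sign with no call on either side, and 146 genes neither lost nor gained a call under any alternative other than the thresholds and the added RNA controls. Of 1770 counts of list members 146 moved by over 1.5 times. The cause of these changes was not tested.

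Limits are the 3 pigs, a remote region from another wall, and some technical controls that differed with region. Another is a dependence of the split between rises and falls on scaling. Gene names, compared as written, also differ between the sources for 253 of 1338 probe sets (18.9%). Some of these are an older and a newer symbol of the same gene, such as ADFP and PLIN2. Of 993 genes with several tested probe sets, 32 had calls in both directions. The scaling by added RNA controls was chosen after seeing the data, and limma's common spread there means that its calls do not use each probe set's own error.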
